A study of Homo sapiens with 3 samples.

Results

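Amino acid transporters were followed in HCT116, a human colorectal carcinoma cell line, after shRNA directed at circRAPGEF5, a circular RNA named for its host gene RAPGEF5. The set held 8 genes, chosen by name from the 15625 genes of the expression table: SLC1A4, SLC1A5, SLC38A1, SLC38A2, SLC3A2, SLC7A5, SLC7A11 and SLC7A1. The knockdown group was sh_circRAPGEF5, with 2 libraries called sh_circRAPGEF5_1 and sh_circRAPGEF5_2, and the other group was sh_control, with 1 library. All 3 came from cells transfected with a purchased shRNA knockdown system and collected after 36 or 48 h, carried the genotype tag MT, whose meaning is not given in the sources used here, and were grown in the same way. Which library had which collection time is not stated, so time and treatment cannot be told apart. Whether the knockdown libraries are different hairpins, cultures or repeats is not stated either, so the spread between them may be technical. Every p-value here rests mainly on spread pooled across genes, and the single control library has no measured spread. The p-values may therefore not extend beyond these particular libraries. The series title places the study in RAS/RAF/MEK/ERK signalling during colorectal carcinogenesis.

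Cells import amino acids through solute carriers of several families, which differ in the amino acids they accept and in whether they exchange a molecule or take it up together with sodium. SLC3A2 is the heavy chain, also called CD98, that brings light chains such as SLC7A5 (LAT1, large neutral amino acids including leucine) and SLC7A11 (xCT, cystine in exchange for glutamate) to the plasma membrane. Many of these genes are transcribed by ATF4, the effector of the integrated stress response to amino acid shortage, and proliferating tumour cells use them to feed protein synthesis, mTORC1 signalling and glutathione production.

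Levels are given in FPKM, a fragment number divided by gene length and library depth, so levels can be compared between genes. Differences are in log2(FPKM + 1), each knockdown library minus the control. The smallest whole read numbers that give the deposited FPKM ratios summed to 14831445 in sh_circRAPGEF5_1, 15757817 in sh_circRAPGEF5_2 and 14632390 in sh_control. The host gene RAPGEF5 was at 1.33 and 2.73 FPKM in the knockdown libraries, against 1.98 FPKM in the control. This gene-level value does not measure the circular RNA, so the knockdown itself is not checked by these data. The epithelial marker EPCAM was at 169.98 and 191 FPKM in the knockdown libraries and 176 FPKM in the control. KRT8, KRT18 and KRT19 were higher still in every library, while VIL1, GPA33, LGALS4 and KRT20 were below the expression filter. CDH1 was lower in both knockdown libraries, at 20.3 and 26.7 FPKM against 33.1 FPKM in the control. CDX2 was split, at 3.40 and 5.61 FPKM against 4.24 FPKM. Of 19 fibroblast, leukocyte and endothelial markers, 12 were in the table and 4 of these passed the filter. The fibroblast markers in the table summed to 4.71 and 8.49 FPKM in the knockdown libraries, against 14.0 FPKM in the control, and the leukocyte markers to 3.96 and 10.2 FPKM, against 3.09 FPKM. The endothelial markers summed to 11.2 and 15.6 FPKM in the knockdown libraries, with the control between them at 13.5 FPKM. All 12 together had 19.9 and 34.3 FPKM in the knockdown libraries and 30.6 FPKM in the control, and their part in the results was not tested.

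All 8 transporters passed the filter of a mean of at least 1 FPKM. SLC1A4 passed only through its control level of 5.62 FPKM, with 0.744 and 0.886 FPKM in the knockdown libraries. Its place in the counts of lower genes below therefore depends on the control library. Of the 8, 5 were lower than the control in both knockdown libraries, beside 37.6% of the 11216 genes tested. SLC38A2 was higher in both, beside 31.7% of genes, and 2 transporters lay on opposite sides of the control, beside 30.7%. With 1 FPKM added, SLC7A11 and SLC1A4 were at least 2-fold lower in both libraries, beside 1.70% of genes, and 0 of the 8 were at least 4-fold lower in both, beside 0.0357%. That 0 rests on the added 1 FPKM: in FPKM itself, and with 0.1 FPKM added, 1 of the 8, SLC1A4, was more than 4-fold lower in both. With 0.1 FPKM added, 18 of 11216 genes were at least 4-fold lower in both. At 1.5-fold, 4 of the 8 were lower in both, beside 7.40% of genes, and 1, SLC38A2, was higher in both, beside 5.52%. With quantile normalization the 1.5-fold counts were 5 lower and 0 higher, beside 700 and 688 of 11216 genes. SLC38A2 was then at 0.98 and 0.43 on the log2 scale. By limma with Benjamini-Hochberg adjustment over all genes tested, 0 of the 8 passed the threshold of 0.05, beside 0.0178% of genes (2 of 11216). An unadjusted limma p under 0.05 was found for 3 of the 8, SLC7A11, SLC1A4 and SLC7A1, beside 7.07% of genes. The median log2 difference of the 8 transporters was -0.59 (-0.55 in sh_circRAPGEF5_1 and -0.63 in sh_circRAPGEF5_2), beside -0.05 over all genes tested. Both knockdown libraries are set against the same control library, so their agreement in direction rests in part on that library. In bulk RNA, fewer expressing cells and less RNA per cell cannot be told apart.

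**Figure D1:**
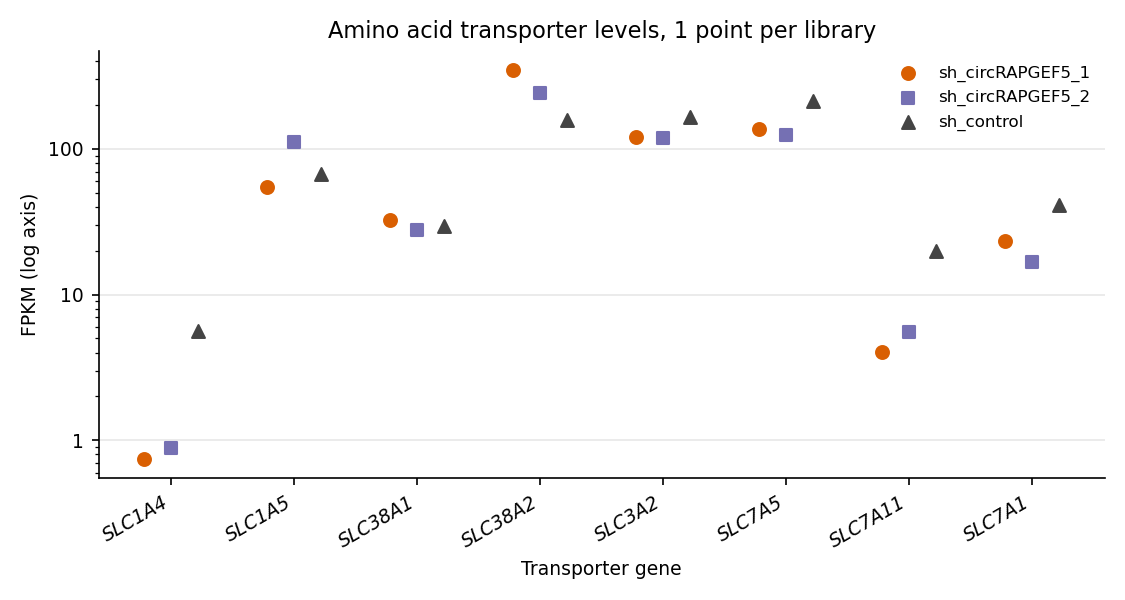
FPKM on a log axis for the 8 transporter genes, with 1 point for each library and no error bars. SLC1A4 and SLC7A11 lie far below the control in both knockdown libraries, SLC38A2 lies above it, and SLC1A5 is split, at 55.0 and 112 FPKM against 67.4 FPKM.

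SLC1A4 (Entrez 6509, GRCh38 chromosome 2, 64988477 to 65023865, plus strand), the neutral amino acid exchanger ASCT1 that carries alanine, serine and cysteine, was at 0.744 and 0.886 FPKM in the knockdown libraries, against 5.62 FPKM in the control. These levels rest on 57 and 72 reads against 425 reads, the smallest whole numbers that fit. The FPKM ratio to the control was 0.132 in sh_circRAPGEF5_1 (95% exact binomial interval 0.0985 to 0.175) and 0.158 in sh_circRAPGEF5_2 (0.121 to 0.203), and such intervals cover counting error only. Both knockdown libraries were thus well under the control and close to each other. The mean log2 difference was -1.87 ± 0.44 (SE), with a limma adjusted p of 0.381. Adding 1 FPKM understates the change of a gene at this level, and with 0.1 FPKM added the mean difference was -2.65, with a limma adjusted p of 0.597. With 5 FPKM added it was -0.87, under 2-fold, with a limma adjusted p of 0.211. Over the alternatives tried the mean difference ranged from -2.65 to -0.87 and the adjusted p from 0.211 to 0.924.

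SLC1A5 (Entrez 6510, chromosome 19, 46774883 to 46788594, minus strand), the paralogous exchanger ASCT2 and a main route of glutamine entry in many tumour cells, was split between the knockdown libraries. It was at 55.0 FPKM in sh_circRAPGEF5_1 and 112 FPKM in sh_circRAPGEF5_2, against 67.4 FPKM in the control. The control level therefore lay between them, with log2 differences of -0.29 and 0.72. They were 2.03-fold apart, on 2868 and 6185 reads, and the ratio of sh_circRAPGEF5_1 to sh_circRAPGEF5_2 had a counting interval of 0.470 to 0.514. Of the 8 transporters, 1, SLC1A5, was at least 1.5-fold apart between the knockdown libraries on the log2(FPKM + 1) scale, beside 26.7% of genes tested. The mean log2 difference from the control was 0.22 ± 0.46 (SE, limma adjusted p 0.957). In FPKM, SLC1A5 exceeded SLC1A4 by 73.9 and 126 times in the knockdown libraries and by 11.98 times in the control. The size of the knockdown ratios depends on the low SLC1A4 levels of 0.744 and 0.886 FPKM.

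SLC38A2 (Entrez 54407, chromosome 12, 46358189 to 46372867, minus strand), the sodium-coupled neutral amino acid transporter SNAT2, was the transporter with higher levels in both knockdown libraries. It was at 348 and 241 FPKM there, against 157 FPKM in the control, on 27532, 20210 and 12281 reads. The FPKM ratio to the control was 2.21 in sh_circRAPGEF5_1 and 1.53 in sh_circRAPGEF5_2, with counting intervals of 2.17 to 2.26 and 1.497 to 1.566. The mean log2 difference was 0.88 ± 0.42 (SE), with a limma adjusted p of 0.726. Counting error was thus small beside the gap between the knockdown libraries, which was 0.53 on the log2 scale.

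SLC38A1 (Entrez 81539, chromosome 12, 46183063 to 46270017, minus strand), the related transporter SNAT1, lies 88171 bases from SLC38A2 on the same strand. It was at 32.5 and 27.7 FPKM in the knockdown libraries, against 29.4 FPKM in the control. The control lay between the knockdown libraries, and the mean log2 difference was 0.03 ± 0.40 (SE, limma adjusted p 0.996). In FPKM, SLC38A2 exceeded SLC38A1 by 10.7 and 8.68 times in the knockdown libraries and by 5.35 times in the control.

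SLC3A2 (Entrez 6520, chromosome 11, 62856102 to 62888875, plus strand), the shared heavy chain, was at 121 and 119 FPKM in the knockdown libraries, against 166 FPKM in the control. The knockdown libraries differed by 0.02 on the log2 scale, less than for any of the other 7 transporters. The mean log2 difference from the control was -0.47 ± 0.39 (SE, limma adjusted p 0.858).

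SLC7A5 (Entrez 8140, chromosome 16, 87830023 to 87869488, minus strand), the leucine-carrying light chain, was at 138 and 125 FPKM, against 214 FPKM in the control. Both knockdown libraries lay below the control, with log2 differences of -0.63 and -0.77 and a mean of -0.70 ± 0.39 (SE, limma adjusted p 0.772). GENCODE 29 lists 2 pseudogene copies, SLC7A5P1 and SLC7A5P2, and reads could be split between them and SLC7A5, so its level is uncertain to that extent.

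SLC7A11 (Entrez 23657, chromosome 4, 138164097 to 138242349, minus strand), the cystine-importing light chain, was at 4.04 and 5.51 FPKM in the knockdown libraries, against 19.97 FPKM in the control. These levels rest on 650 and 940 reads against 3171 reads. The FPKM was 4.94-fold lower in sh_circRAPGEF5_1 and 3.63-fold lower in sh_circRAPGEF5_2, with counting intervals for the ratio to the control of 0.186 to 0.220 and 0.256 to 0.297. The mean log2 difference, -1.87 ± 0.43 (SE), had a limma adjusted p of 0.381. Ordered by that difference from the lowest, SLC7A11 was gene 15 and SLC1A4 gene 16 of the 11216 tested.

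The light chains that pair with SLC3A2 were also summed, with SLC7A6, SLC7A7, SLC7A8 and SLC7A10 beside SLC7A5 and SLC7A11. The 6 light chains together had 168 and 144 FPKM in the knockdown libraries, against 251 FPKM in the control. Set over SLC3A2, this was 1.39 and 1.21 in the knockdown libraries, against 1.51 in the control. SLC7A5 supplied 81.8% and 86.7% of the light chain sum in the knockdown libraries and 85.2% in the control, while SLC7A11 supplied 2.40% and 3.82% against 7.96%. SLC7A6, which exchanges cationic and neutral amino acids, was at 23.9 and 11.2 FPKM against 13.9 FPKM in the control, so the knockdown libraries lay on opposite sides. SLC7A8 (LAT2) was at 2.66 and 2.26 FPKM, against 2.999 FPKM in the control.

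SLC7A1 (Entrez 6541, chromosome 13, 29509410 to 29595688, minus strand), the arginine and lysine transporter CAT1 that works without a heavy chain, was at 23.4 and 16.7 FPKM in the knockdown libraries, against 41.0 FPKM in the control. It was 1.75-fold lower in sh_circRAPGEF5_1 and 2.46-fold lower in sh_circRAPGEF5_2. The mean log2 difference was -1.02 ± 0.41 (SE, limma adjusted p 0.641). Antisense genes in GENCODE 29 share 23.4% of the exonic bases of SLC1A5, 8.97% of those of SLC7A11 and 5.71% of those of SLC7A5. The counting program's strand setting is not given in the sources used here, so reads of these partners may not be separated.

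**Figure D2:**
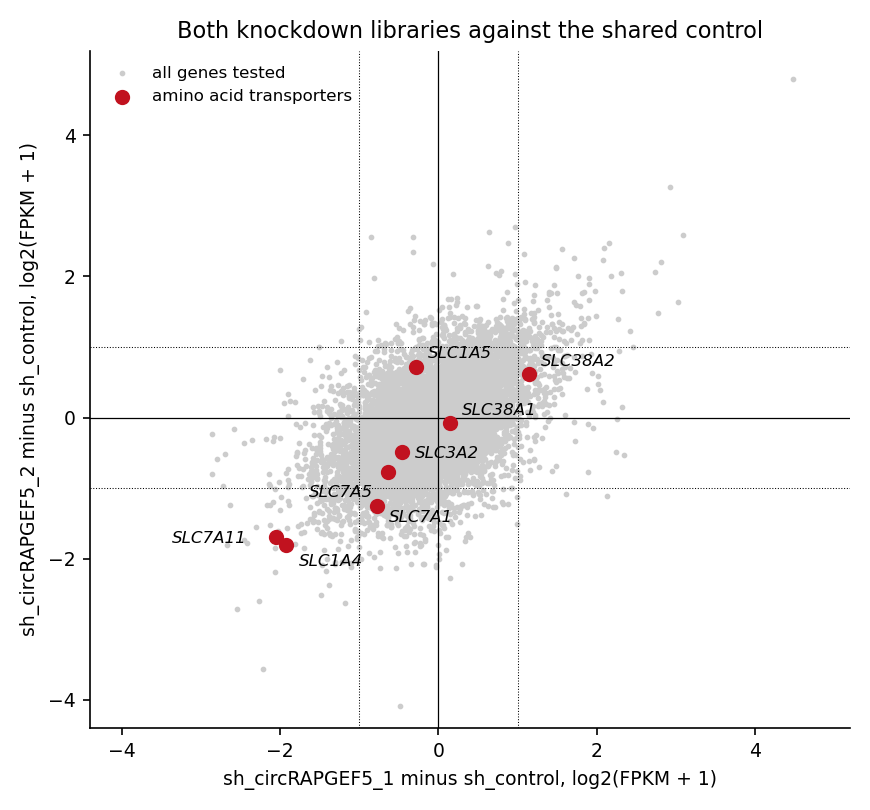
Log2(FPKM + 1) of sh_circRAPGEF5_1 minus sh_control on the x axis and of sh_circRAPGEF5_2 minus sh_control on the y axis, with grey points for all 11216 genes tested, red points for the 8 transporters and dotted lines at 2-fold. SLC7A11 and SLC1A4 lie together at the lower left, at -2.06 and -1.69 and at -1.92 and -1.81, and the slope of the grey cloud partly reflects the shared control.

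The order of the transporters by level was the same in both knockdown libraries. From high to low it ran SLC38A2, SLC7A5, SLC3A2, SLC1A5, SLC38A1, SLC7A1, SLC7A11 and SLC1A4. In the control SLC7A5 and SLC3A2 stood above SLC38A2, and SLC7A1 stood above SLC38A1. Knockdown means were 294 ± 75.6 FPKM for SLC38A2, 131 ± 8.80 FPKM for SLC7A5, 120 ± 1.37 FPKM for SLC3A2 and 83.4 ± 40.2 FPKM for SLC1A5 (SD, n = 2). SLC3A2 and SLC1A5, neighbours in this order, differed by less than the spread of SLC1A5. The spread of levels over the set was wider in the knockdown libraries, where the highest level was 467 and 272 times the lowest, against 38.1 times in the control. The lowest gene in every library was SLC1A4, on 57 and 72 reads in the knockdown libraries, so the size of these ratios depends on it.

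The summed level of the 8 genes was 721 and 647 FPKM in the knockdown libraries and 701 FPKM in the control, so the control lay between them. SLC38A2 made up 48.2% and 37.2% of that sum in the knockdown libraries, against 22.4% in the control. SLC7A5 made up 19.1% and 19.3%, against 30.5%, and SLC3A2 16.7% and 18.3%, against 23.7%. SLC7A1 made up 3.25% and 2.58%, against 5.85%, and SLC7A11 0.560% and 0.851%, against 2.85%. No interval is given for these shares because FPKM is not a count.

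**Figure D3:**
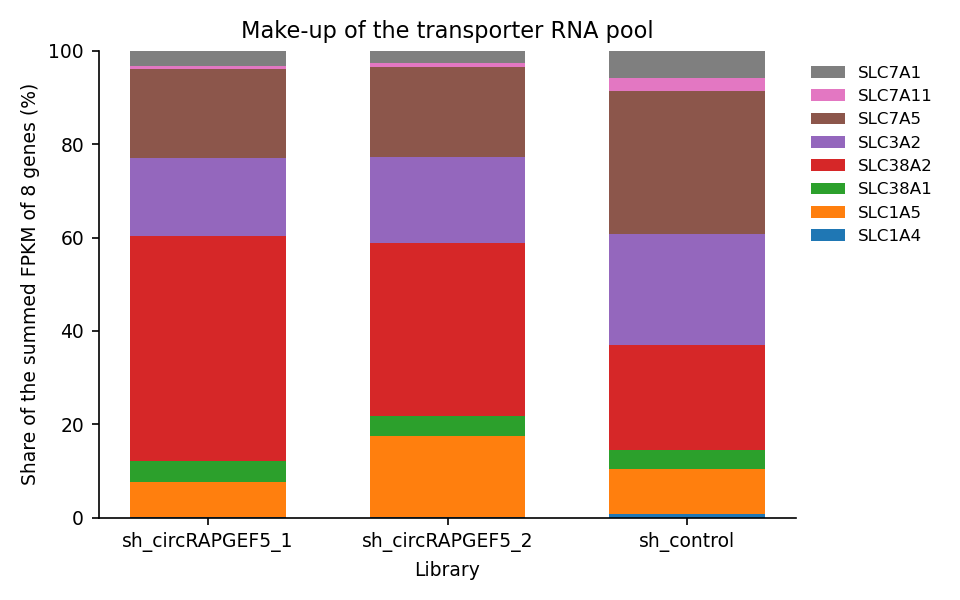
Stacked bars of the share of each transporter in the summed FPKM of the 8 genes, 1 bar for each library and no error bars. SLC38A2 takes 48.2% and 37.2% in the knockdown libraries and 22.4% in the control, with smaller shares of SLC7A5 and SLC3A2 in the knockdown bars.

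Promoter sequence was examined because 5 of the 8 transporters lay below the control together and because ATF4 binds, with C/EBP partners, an element read as TGATGNAA. RefSeq promoter windows of GRCh38.p14, from 250 bases before to 50 bases after a transcript start, were at hand for 7 of the 8 transporters, in 13 windows; SLC7A11 was not among them. Capitals mark the letters TGATGNAA on either strand, which reads TTNCATCA on the opposite strand. Shown are a window of SLC1A4 and of SLC7A1, both lower in the knockdown libraries, and the window of SLC38A2, which was higher and holds no match. The only window of SLC7A5, which was lower in both knockdown libraries, holds no match either. Nor does the other window of SLC1A4, chr2:64988229-64988528. Sequence outside the windows was not searched, so a gene without a match here may hold the letters elsewhere. A link between matches and levels was not tested.
SLC1A4, chr2:64989149-64989448, plus strand: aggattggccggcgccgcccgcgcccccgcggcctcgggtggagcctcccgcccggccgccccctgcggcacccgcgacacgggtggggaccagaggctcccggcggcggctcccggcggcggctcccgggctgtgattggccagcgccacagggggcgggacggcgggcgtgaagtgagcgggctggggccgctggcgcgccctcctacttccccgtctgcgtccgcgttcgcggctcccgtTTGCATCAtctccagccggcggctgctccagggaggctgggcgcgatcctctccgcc
SLC7A1, chr13:29595639-29595938, minus strand: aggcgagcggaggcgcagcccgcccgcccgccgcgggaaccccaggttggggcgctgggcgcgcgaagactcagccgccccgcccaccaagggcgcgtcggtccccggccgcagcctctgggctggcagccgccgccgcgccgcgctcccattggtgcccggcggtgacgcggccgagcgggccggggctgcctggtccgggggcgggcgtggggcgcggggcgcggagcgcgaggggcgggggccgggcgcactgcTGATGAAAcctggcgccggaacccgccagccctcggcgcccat
SLC38A2, chr12:46372724-46373023, minus strand: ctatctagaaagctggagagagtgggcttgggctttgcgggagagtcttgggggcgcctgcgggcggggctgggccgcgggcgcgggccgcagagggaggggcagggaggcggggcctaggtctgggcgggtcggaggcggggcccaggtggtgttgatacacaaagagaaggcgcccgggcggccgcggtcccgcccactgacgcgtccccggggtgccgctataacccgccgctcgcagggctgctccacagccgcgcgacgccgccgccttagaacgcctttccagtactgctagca

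The SLC1A4 match begins 7 bases before the transcript start, at position -7, and the SLC7A1 match at position 8. Of the 7 transporters, 5 held the letters in at least 1 of their windows, beside 4.46% of 27305 genes. By window it was 5 of 13, beside 3.62% of 35116 windows in the table. The other three were SLC3A2 (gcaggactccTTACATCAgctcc), SLC1A5 (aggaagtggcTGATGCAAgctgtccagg) and SLC38A1 (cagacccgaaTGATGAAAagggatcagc), of which SLC1A5 and SLC38A1 were split around the control. The match of SLC1A4 reads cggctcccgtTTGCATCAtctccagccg with 10 bases on each side. Genes with more than 1 window have more chance of a match, and a match describes letters, not binding. As many of these genes are transcribed by ATF4, a share above that of all genes could be foreseen. The E-box CACGTG, which reads the same on both strands, was found in a window of SLC7A5 and a window of SLC1A5. This stands beside 8.77% of genes and 7.26% of all windows. The letters TGACNNNGC of the antioxidant response element were searched on both strands, with GCNNNGTCA as the opposite-strand form. They were found in windows of SLC3A2, SLC7A1, SLC7A5 and SLC1A5, beside 16.1% of genes and 13.3% of all windows.

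Other plasma membrane and lysosomal amino acid transporters formed a wider list. Of 32 genes listed, 31 were in the table and 20 were tested: 8 were lower in both knockdown libraries, 3 higher in both and 9 on opposite sides. Over all genes tested these shares were 37.6%, 31.7% and 30.7%. By limma 0 passed the threshold and 2 had an unadjusted p under 0.05, beside 7.07% of genes. The median log2 difference was -0.14. SLC6A9, the glycine transporter GlyT1, was at 2.05 and 1.87 FPKM in the knockdown libraries, against 7.24 FPKM in the control (mean log2 difference -1.48, limma adjusted p 0.499). SLC38A10 was at 20.8 and 20.7 FPKM against 39.3 FPKM, and SLC1A3, a glutamate and aspartate transporter, was at 2.205 and 5.199 FPKM against 6.87 FPKM. SLC38A3, a glutamine transporter, was at 0.627 and 1.15 FPKM, against 1.79 FPKM. The leucine-type facilitators SLC43A1 and SLC43A2 had mean log2 differences of -0.09 and 0.30. The lysosomal transporters SLC36A1 and SLC38A9, of which SLC38A9 senses arginine for mTORC1, had means of 0.36 and -0.44. SLC43A2 and SLC36A1 were split around the control, with log2 differences of 0.83 and -0.23 and of 0.99 and -0.27.

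Genes of the integrated stress response formed a further list. Of 15 tested, 6 were lower in both knockdown libraries, 7 higher in both and 2 on opposite sides. Over all genes tested these shares were 37.6%, 31.7% and 30.7%, so the list's 40% lower in both was near that of all genes. The median log2 difference was 0.06. By limma 0 passed and 1 had an unadjusted p under 0.05, beside 7.07% of genes. ATF4 itself was at 59.9 and 49.3 FPKM in the knockdown libraries, against 80.5 FPKM in the control (mean log2 difference -0.56, limma adjusted p 0.826). Both libraries lay below the control. TRIB3, a pseudokinase that feeds back on ATF4, was at 11.5 and 12.4 FPKM, against 18.1 FPKM. DDIT3, the stress factor CHOP, had log2 differences of 0.15 and 0.36. EIF2S1, the alpha subunit of eIF2 that the stress kinases phosphorylate, and PPP1R15B, which directs its dephosphorylation, had mean log2 differences of 0.90 and 0.84.

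Among ATF4 targets that are not transporters, 20 of 23 listed genes were tested. Of these, 12 were lower in both knockdown libraries, 3 higher in both and 5 on opposite sides, beside 37.6%, 31.7% and 30.7% of genes. At least 2-fold lower in both were 3, beside 1.70% of genes. The median log2 difference was -0.63, at -0.76 in sh_circRAPGEF5_1 and -0.31 in sh_circRAPGEF5_2. By limma 0 passed and 6 had an unadjusted p under 0.05, beside 7.07% of genes. ASNS, asparagine synthetase, was at 32.4 and 29.1 FPKM in the knockdown libraries, against 87.7 FPKM in the control (mean log2 difference -1.48, limma adjusted p 0.478). GPT2, a mitochondrial alanine transaminase, was at 11.3 and 10.6 FPKM, against 21.3 FPKM. CHAC1, which degrades glutathione, was at 2.33 and 3.27 FPKM, against 6.17 FPKM. SESN2, a leucine sensor, was at 22.5 and 15.4 FPKM, with the control between them at 17.8 FPKM. PHGDH and PCK2, enzymes of serine synthesis and mitochondrial gluconeogenesis, had mean log2 differences of -2.10 and -2.24. The 3 higher in both were ALDH18A1, WARS1 and XPOT, with mean log2 differences of 0.42, 0.23 and 0.28.

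**Figure D4:**
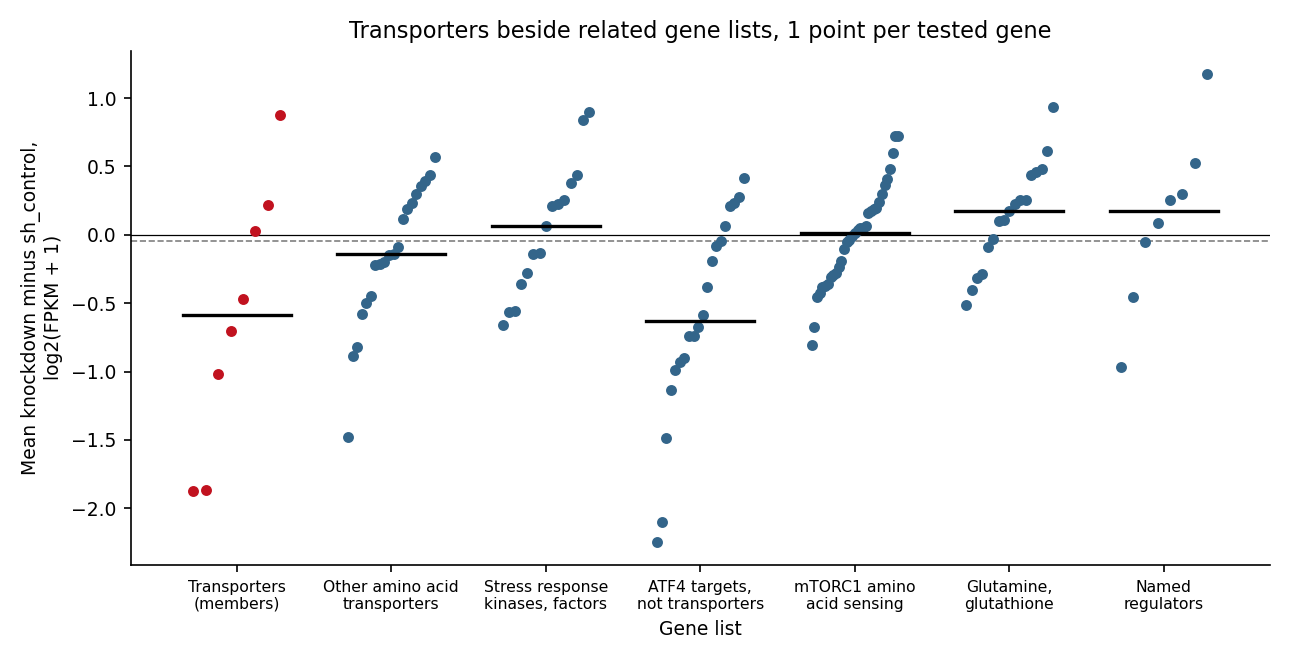
Mean log2(FPKM + 1) of the 2 knockdown libraries minus the control, 1 point for each tested gene of 7 lists, with the transporters in red, a bar at each list's median and a dashed line at the median of all genes tested. The medians of the transporters and of the ATF4 targets lie at -0.59 and -0.63, and the medians of the other 5 lists lie between -0.14 and 0.17. All lists were chosen with earlier results of these data known, so this contrast may partly reflect that choice.

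Genes that sense amino acids upstream of mTORC1 had a median log2 difference of 0.01. Of 33 tested, 9 were lower in both knockdown libraries, 10 higher in both and 14 on opposite sides. By limma 0 passed and 0 had an unadjusted p under 0.05. The shares over all genes tested were 37.6%, 31.7% and 30.7%, and 7.07% had such a p. MTOR, the kinase, was at 20.7 and 16.8 FPKM in the knockdown libraries, against 10.9 FPKM in the control. SESN3 was at 0.370 and 1.55 FPKM, against 2.27 FPKM. Genes that use glutamine or make glutathione had a median of 0.17, with 4 lower in both, 8 higher in both and 5 on opposite sides of 17 tested; by limma 0 passed and 1 had an unadjusted p under 0.05. GSR, glutathione reductase, was at 95.6 and 93.4 FPKM, against 48.9 FPKM (mean log2 difference 0.94, limma adjusted p 0.652). GCLM, the modifier subunit of the rate-limiting glutathione enzyme, was at 4.545 and 6.576 FPKM against 7.57 FPKM.

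Regulators named for these transporters were 9 genes, of which 8 were tested. In both knockdown libraries 0 were lower and 4 were higher, and 4 lay on opposite sides. The shares over all genes tested were 37.6%, 31.7% and 30.7%. By limma 0 passed and 1 had an unadjusted p under 0.05, beside 7.07% of genes. MYC, a transcription factor that acts on SLC1A5 and SLC7A5, was at 111 and 136 FPKM in the knockdown libraries, against 53.7 FPKM in the control. NFE2L2, which encodes the NRF2 factor that acts on SLC7A11, was at 51.4 and 53.5 FPKM, against 43.9 FPKM. NEDD4L, a ubiquitin ligase, was at 8.465 and 9.210 FPKM, against 5.83 FPKM.

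The genes nearest to SLC7A11 in the pair of library differences, over the 2 knockdown libraries and the control they share, were MEF2C, CDKN3 and TSC22D3, at Euclidean distances of 0.03, 0.09 and 0.17 on the log2 scale. MEF2C, a transcription factor, was at 1.68 and 2.47 FPKM in the knockdown libraries against 10.003 FPKM in the control, and CDKN3, a phosphatase of cell cycle kinases, was at 5.73 and 7.96 FPKM against 26.3 FPKM. Among the transporters SLC1A4 was nearest, at 0.18, and SLC38A2 farthest, at 3.94. The likeness is a description over 3 libraries.

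An exact permutation of 2 knockdown libraries against 1 control has 3 splits and cannot go below p = 0.33, so each p above rests on limma's pooling of spread across genes. The lone control is assumed to vary like the knockdown libraries.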

How the data were processed

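Poly(A)-selected RNA of 3 HCT116 samples was sequenced with the TruSeq Stranded mRNA LT kit, per the labels' protocols. The authors deposited FPKM values for 15625 genes, with gene symbols, Entrez numbers and KEGG pathway names, which are other values the authors deposited as annotation text. Trimmomatic, HISAT2 and GRCh38.p13 are named in the submitters' processing notes; the sources used here give no versions, counting program, strand setting or annotation.

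Genes with a mean of at least 1 FPKM (11216) were tested on log2(FPKM + 1) in R 4.3.3 with limma 3.58.1, its variance trend on mean expression switched on, and Benjamini-Hochberg adjustment (threshold 0.05). The 1 residual degree of freedom was joined by an estimated prior of 10.92. The model code was tested on simulated data. FPKM ratios between libraries, after a depth factor was removed, were matched by whole reads within a relative tolerance of 1e-12. A match was found in 100% of the 14795 genes above 0 in the control. The search allowed whole numbers large enough to match almost any ratio that closely, so the 100% does not check the read numbers. These are the smallest numbers that fit, since a factor common to all libraries cannot be seen; printed read numbers are therefore minimum values, and intervals use them. Coordinates came from GENCODE 29 (GRCh38).

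The 8 members and all lists were chosen with earlier results of these data known. Named genes were all members, up to 4 genes per list by the smaller of their 2 library differences, and genes named with the design. Some that the rule takes are not described. ALDH18A1, WARS1 and XPOT were named outside the rule, as were some cell type markers. The settings varied were the pseudocount (0.1 and 5), the filter (none, or a mean of at least 5 FPKM), median-ratio rescaling, quantile normalization, a prior of 5, no trend, thresholds of 1.5-fold and 4-fold, and leaving out each knockdown library.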

Additional observations from a re-analysis of the deposited data

How the results depend on the processing

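By limma, 0 of the 8 transporters passed the threshold in the main setting and in each of the 8 alternatives with a test, in which 2 to 3 had an unadjusted p under 0.05. Over all genes such a p was found for 543 of 11216 with a prior of 5 degrees of freedom and 873 of 11216 with a pseudocount of 5. The count of transporters lower in both knockdown libraries was 5, and 4 with a mean of at least 5 FPKM, which removes SLC1A4 from the genes tested. Over all genes these counts were 4221 of 11216 and 2685 of 8198. The count at least 2-fold lower in both was 2. It was 1 with a pseudocount of 5, beside 39 of 11216 genes, and 1 with a mean of at least 5 FPKM, beside 107 of 8198. It was 4 at a threshold of 1.5-fold and 0 at 4-fold, beside 830 and 4 of 11216 genes. The 0 at 4-fold was 1, SLC1A4, with a pseudocount of 0.1, beside 18 of 11216 genes. The 4 at 1.5-fold was 3 with median-ratio rescaling, 3 with a mean of at least 5 FPKM and 5 with quantile normalization. Over all genes these counts were 623 of 11216, 483 of 8198 and 700 of 11216. Under quantile normalization the 1 transporter at least 1.5-fold higher in both, SLC38A2, was lost (0), beside 688 of 11216 genes. At 2-fold, all genes tested split into 191 lower and 136 higher, and into 138 lower and 186 higher with median-ratio rescaling. The median log2 difference of -0.59 was -0.47 with a mean of at least 5 FPKM, -0.50 with median-ratio rescaling and -0.73 with quantile normalization. Without sh_circRAPGEF5_1 it was -0.63 and without sh_circRAPGEF5_2 -0.55, and 6 transporters were lower than the control each time. A gene then needs to be lower in only 1 library, and over all genes 5950 and 5931 of 11216 were. The 2-fold count was 3 and 2, beside 680 and 666 of 11216 genes. These values have no test, because no residual degrees of freedom are left. SLC38A1, at 0.031, turned to -0.046 with quantile normalization and ranged from -0.080 without sh_circRAPGEF5_1 to 0.14 without sh_circRAPGEF5_2. SLC1A5 ranged from -0.29 without sh_circRAPGEF5_2 to 0.72 without sh_circRAPGEF5_1; the cause was not tested. SLC38A2, at a mean of 0.88, was 1.14 without sh_circRAPGEF5_2 and 0.61 without sh_circRAPGEF5_1. The 2 calls among all genes tested were 0 with a prior of 5 degrees of freedom, with no filter and with quantile normalization, and 1 to 2 otherwise. No paired analysis was possible because there is a single control library for the 2 knockdown libraries. Depth limits SLC1A4 most, with 57 and 72 reads in the knockdown libraries.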
